A study of Mus musculus with 2 samples.

Results

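Nefl, Nefm, Slc1a3 and Tac1 are 4 genes best known from nerve cells and glia that were detected in mesenchymal cells of the mouse embryonic genital tubercle, the bud from which penis or clitoris develops. They were 4 of the 31053 genes counted in a droplet single-cell RNA-seq series of 1 male and 1 female library. The members were listed by symbol, with earlier results of these libraries known, and each symbol matched 1 gene. Their detection in mesenchyme, their level in the Foxd1 and Msx2 domains and their co-detection were the values they were chosen by, so those values are given here as a description with no test. Each library held genital tubercles of 3 wild-type C57BL/6 embryos at embryonic day 14.5, Theiler stage 22. The embryos came from 2 litters, and all animals of a sex were dissociated together with collagenase. With 1 pool for each sex, no difference between the sexes had a replicate check, and neither library carried a treatment or an introduced allele, per the labels.

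Neurofilament light (Nefl) and neurofilament medium (Nefm) are intermediate filament proteins that, with the heavy chain Nefh, build the cable-like filaments of axons and set their calibre. Slc1a3 encodes GLAST, also named EAAT1, a membrane transporter that takes up glutamate and aspartate and is a classic marker of astrocytes and radial glia. Tac1 encodes the precursor that is cut into the peptides substance P and neurokinin A, which act through the tachykinin receptors Tacr1 and Tacr2 and are released by sensory and enteric neurons. In limb and genital outgrowths, mesenchyme is patterned into regions by transcription factors, among them the forkhead factor Foxd1 and the homeobox factor Msx2, a target of BMP signalling in distal mesenchyme.

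In the mm10 genome with GENCODE M21 genes, Nefl (ENSMUSG00000022055) lies on chr14:68083863-68089095 on the plus strand. Nefm (ENSMUSG00000022054) spans chr14:68082590-68124846 on the minus strand, because 1 of its 2 annotated transcripts runs across Nefl, whereas the other covers chr14:68119283-68124846 alone. Exons of the pair shared 1108 bases on opposite strands, which is 32.8% of the 3380 exon bases of Nefl and 19.2% of the 5782 of Nefm. Whether the authors' counting used strand is not given in the sources used here, and without strand a read in those shared bases could not be told apart between the pair. Slc1a3 (ENSMUSG00000005360) lies on chr15:8634124-8710764 on the minus strand and overlaps the unclassified transcript Gm37310. Tac1 (ENSMUSG00000061762) lies on chr6:7554879-7565834 on the plus strand with no overlapping gene.

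Promoter sequences were matched for 2 of the 4 members in RefSeq (GRCm38.p6), and they are shown because Slc1a3 and Tac1 had opposite regional patterns below. Each runs 5′ to 3′ on the gene's strand, 250 bases before to 50 bases after the start annotated in that source. For both genes that start differs from the GENCODE gene boundary given above. It lies inside the GENCODE span of Tac1 and outside that of Slc1a3. The Slc1a3 window is chr15:8710758-8711057, minus strand, and the Tac1 window is chr6:7554811-7555110, plus strand. Capitals mark the motifs that were found among the 5 searched on both strands, which were the homeobox core TAATTA, the E-box CACGTG, the forkhead core GTAAACA, the cyclic AMP response element TGACGTCA and its part CGTCA.
Slc1a3: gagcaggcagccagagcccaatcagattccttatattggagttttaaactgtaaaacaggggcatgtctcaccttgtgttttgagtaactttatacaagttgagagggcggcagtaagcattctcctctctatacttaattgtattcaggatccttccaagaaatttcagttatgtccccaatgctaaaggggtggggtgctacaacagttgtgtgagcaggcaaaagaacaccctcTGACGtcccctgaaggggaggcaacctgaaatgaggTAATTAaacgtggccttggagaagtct
Tac1: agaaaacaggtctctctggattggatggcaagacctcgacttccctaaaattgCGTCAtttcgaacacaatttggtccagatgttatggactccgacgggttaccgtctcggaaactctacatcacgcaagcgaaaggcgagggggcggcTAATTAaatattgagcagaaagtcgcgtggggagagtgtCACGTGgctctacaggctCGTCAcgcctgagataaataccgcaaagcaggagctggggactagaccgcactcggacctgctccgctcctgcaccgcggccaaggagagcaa
Both windows held TAATTA, starting at base -100 relative to the start in Tac1 and at base 24 in Slc1a3. TAATTA occurred in 5.29% of 32851 promoter windows of the same length. CGTCA was at bases -197 and -43 in Tac1 and on the other strand at base -13 in Slc1a3, and was present in 20.8% of the windows. CACGTG, present in 7.15% of windows, was found at base -61 of Tac1. TGACGTCA, a motif that contains CGTCA and was in 1.79% of windows, and GTAAACA, in 3.65%, had no match in these letters for either gene. Nefl and Nefm had no entry.

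The libraries held 130105692 UMIs (unique molecular identifiers, each standing for 1 captured RNA molecule) for the male pool and 144515562 for the female pool. Barcodes were kept with 2000 or more UMIs, 500 or more genes and no more than 10% mitochondrial UMIs, which gave 17254 male and 18711 female barcodes. A barcode was taken as mesenchymal if it had no UMI of Sox10 (neural crest glia), Epcam (epithelium), Cdh5 (endothelium) or Ptprc (leukocytes). This left 16220 male and 17785 female barcodes, 94.01% and 95.1% of those kept, with median depths of 5094 and 5175 UMIs. The label was checked against 8 mesenchyme markers (Prrx1, Twist1, Pdgfra, Col1a1, Col1a2, Col3a1, Lum, Dcn). At least 3 of them were detected in 95.3% of the male and 95.2% of the female barcodes. The libraries shared 82 barcode sequences, and leaving those out moved none of the domain ratios, the shares, the co-detection shares or the sex ratios over all mesenchymal barcodes beyond its counting interval. Other values were not recomputed without them. The gate also passed some cells of other kinds. Leiden clustering, run without the 4 members, Foxd1 and Msx2, gave 28 clusters, of which 6 had leading genes of erythroid cells (cluster 20), smooth muscle (23), skeletal muscle (24), keratinised epithelium (25), immune cells (26) or glia (27). Cluster 23 held 201 male barcodes and 0 female barcodes, and its weight in the Nefl and Nefm values is given beside them.

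Each member was detected in a minority of mesenchymal barcodes of both libraries. Nefl, the light chain, had 3211 male and 4004 female UMIs, or 32.4 and 34.5 CPM (counts for each 1000000 UMIs). It was detected in 8.61% of male barcodes (8.18% to 9.05%) and 8.63% of female barcodes (8.22% to 9.05%). The bounds in parentheses are exact Clopper-Pearson 95% intervals, and like the intervals below they cover counting error only. Nefm, the medium chain, had 3583 male and 5404 female UMIs, 36.2 and 46.6 CPM. It was detected in 7.71% of male and 8.80% of female barcodes. Slc1a3 had 1790 male and 2209 female UMIs, 18.1 and 19.1 CPM, and was detected in 8.50% and 9.10% of barcodes. Tac1 had 9707 male and 9482 female UMIs, 98.1 and 81.8 CPM. Its UMIs were found in 24.2% of male barcodes (23.5% to 24.8%) and 22.6% of female barcodes (21.97% to 23.2%).

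At least 1 of the 4 members was present in 6388 male barcodes (39.4%) and 6753 female barcodes (37.97%). At least 1 of Nefl, Nefm and Slc1a3 was present in 17.8% and 18.5%. These shares depend on depth, since a barcode with few UMIs can miss a gene that the cell expresses. With every barcode thinned to 2000 UMIs the shares were 4.24% male and 4.23% female for Nefl and 4.08% and 4.91% for Nefm. On the same thinned counts they were 3.26% and 3.25% for Slc1a3 and 13.2% and 11.6% for Tac1. Mesenchymal barcodes held between 91.4% and 96.5% of each member's UMIs among kept barcodes. They were 94.01% of the male and 95.1% of the female kept barcodes. In both libraries Nefl, Nefm and Slc1a3 were below that share of barcodes and Tac1 was above it.

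The members differed in how their UMIs were spread over barcodes. Among Slc1a3-positive barcodes, 78.3% in the male library and 76.6% in the female one had 1 UMI, and the highest barcodes had 6 and 14. Nefm was the most uneven by the ratio of variance to mean, at 6.72 male and 9.58 female, against 4.70 and 5.96 for Nefl, 3.78 and 3.73 for Tac1 and 1.53 and 1.76 for Slc1a3. At least 5 Nefm UMIs were counted in 17.1% of male and 22.4% of female Nefm-positive barcodes, and the highest had 29 and 81. The 10% of Nefm-positive barcodes with the most UMIs carried 39.0% of the male and 40.1% of the female Nefm UMIs. For Nefl the barcodes with at least 5 UMIs were 12.3% and 14.9% of the positive ones, with highest values of 28 and 41. Barcodes with 1 UMI were 57.7% male and 53.7% female of the Nefl-positive ones, and 50.6% and 46.8% of the Nefm-positive ones. Tac1 had 1 UMI in 44.1% of male and 47.0% of female positive barcodes and at least 5 UMIs in 12.8% and 11.5%.

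Domains were set by the Foxd1 and Msx2 UMIs of each barcode. Barcodes with Foxd1 and no Msx2 numbered 987 male and 1274 female, and those with Msx2 and no Foxd1 numbered 4873 and 4970. Nefl, Nefm and Slc1a3 were higher in Foxd1-only than in Msx2-only barcodes of both libraries, and Tac1 was lower. In the male library Nefl stood at 63.9 CPM in Foxd1-only barcodes, against 14.3 CPM in Msx2-only barcodes, a log2 ratio of 2.16 (1.97 to 2.35). The female values were 69.8 CPM and 12.0 CPM, a log2 ratio of 2.54 (2.36 to 2.71). Nefm had 66.6 CPM in male Foxd1-only and 14.9 CPM in male Msx2-only barcodes (log2 ratio 2.16), and 92.6 against 16.97 CPM in the female library (2.45). Both neurofilament genes therefore had the same order of domains in each pool.

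Slc1a3, the glutamate transporter, stood at 37.7 CPM in male Foxd1-only and 6.07 CPM in male Msx2-only barcodes, a log2 ratio of 2.63 (2.36 to 2.91). Its female levels were 38.9 and 6.97 CPM, a log2 ratio of 2.48 (2.25 to 2.72). Tac1 went the other way. Male Foxd1-only barcodes had 15.4 CPM of Tac1, against 207 CPM in Msx2-only barcodes, a log2 ratio of -3.74 (-4.02 to -3.48). Female Foxd1-only barcodes had 15.2 CPM, against 156 CPM, a log2 ratio of -3.36 (-3.60 to -3.13). A log2 ratio of at least 1 was reached by 2.44% of 12491 genes with at least 100 mesenchymal UMIs in the male library and 2.08% of 12558 in the female library, and a ratio of at most -1 by 4.78% and 4.01%. By rank from the Foxd1 end, Nefl was gene 45 in the male library and gene 22 in the female one, Nefm 46 and 26, and Slc1a3 21 and 23. Tac1 was gene 38 and gene 50 from the Msx2 end. The median log2 ratio of the genes tested was 0.02 in both libraries.

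Shares of positive barcodes had the same order as the levels. Slc1a3 was detected in 20.6% of male Foxd1-only barcodes, against 3.04% of Msx2-only ones, and in 21.2% against 3.88% in the female library. Nefl was detected in 15.8% against 4.68% of male and 16.9% against 3.82% of female barcodes. Tac1 was detected in 6.18% of Foxd1-only against 49.3% of Msx2-only male barcodes, and in 7.93% against 42.4% of female ones. Median depth differed between the sets, at 6532 UMIs in male Foxd1-only and 5120 in male Msx2-only barcodes, and 6970.5 and 5404 in the female library. With thinned counts every log2 ratio kept its sign. Barcodes with both gate genes had levels between the exclusive sets for each member, for example 85.6 CPM male and 68.8 CPM female for Tac1.

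**Figure D1:**
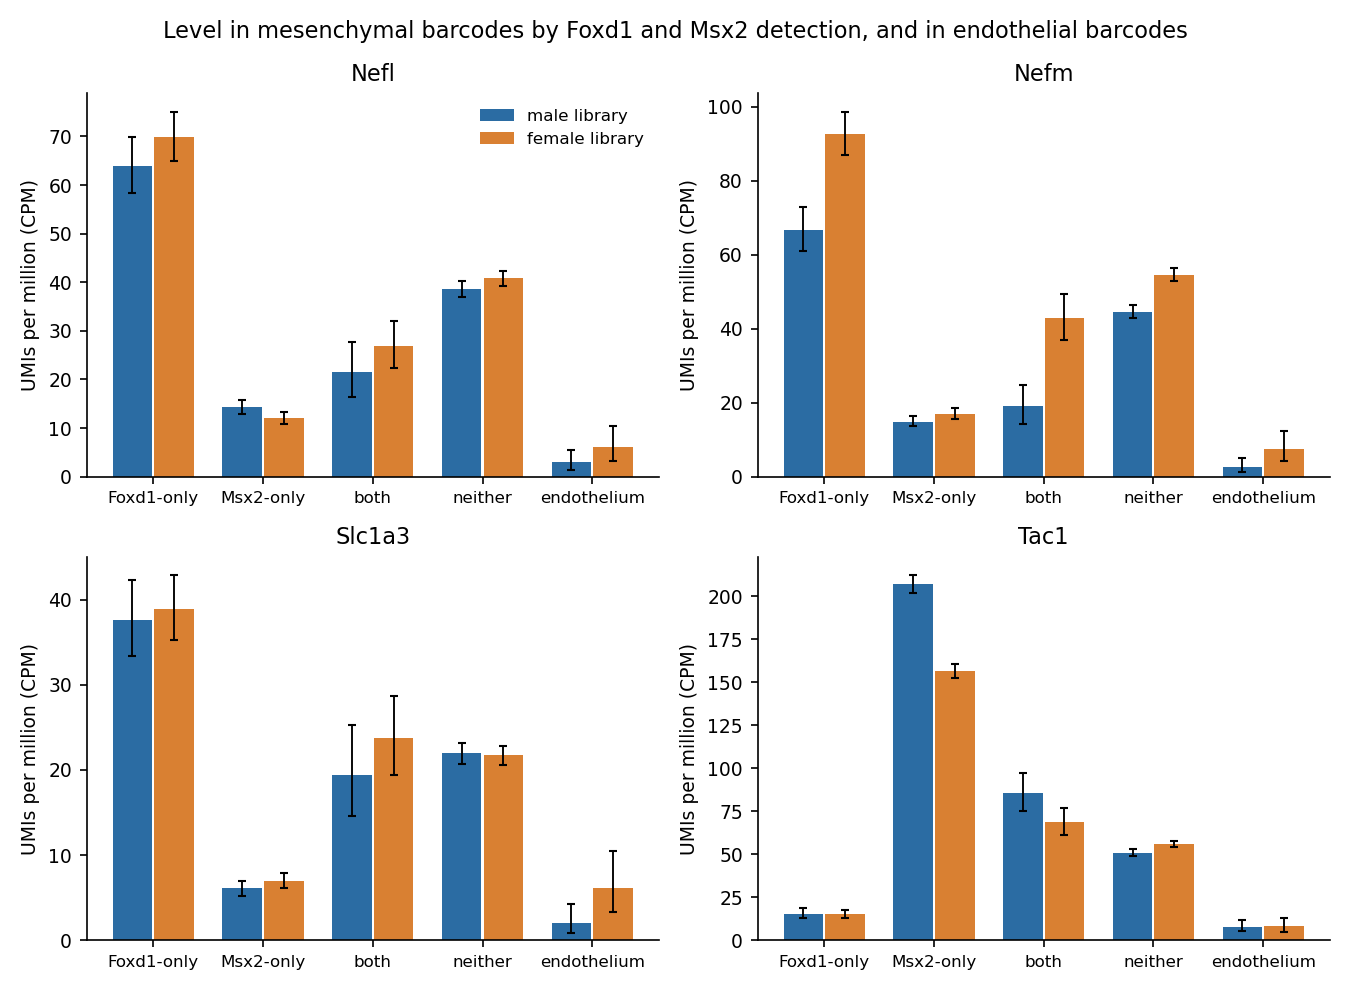
Level of each member (CPM) in mesenchymal barcodes with Foxd1 only, Msx2 only, both or neither, and in endothelial barcodes, with the male library left of the female library in each set. Bars are CPM of the summed UMIs and error bars the exact 95% counting interval. Nefl, Nefm and Slc1a3 are highest in Foxd1-only barcodes and Tac1 in Msx2-only barcodes, where it stood at 207 CPM male and 156 CPM female.

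Most Nefl, Nefm and Slc1a3 UMIs nevertheless lay in barcodes with neither gate gene. Those barcodes held 69.7% of male and 68.5% of female Nefl UMIs, 71.9% and 67.8% of Nefm and 70.9% and 66.0% of Slc1a3, against 58.5% and 58.0% of all UMIs. Foxd1-only barcodes held 14.7% and 18.3% of the Nefl UMIs, beside 7.46% and 9.07% of all UMIs. For Tac1, Msx2-only barcodes held 66.0% of male and 55.6% of female UMIs, beside 31.3% and 29.1% of all UMIs. Detection of a gate gene at this depth is incomplete, so a barcode with neither need not come from a cell without them.

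Among the clusters, which are described here without a test, the members had narrower peaks than between the gates. Nefl, Nefm and Slc1a3 were highest in cluster 1, whose other leading genes were Lmcd1, Lbx2, Col8a1, Spock1 and Sall3. There Nefl reached 155 CPM male and 215 CPM female, Nefm 197 and 324 CPM, and Slc1a3 70.5 and 79.9 CPM. Clusters 16 (Lmcd1, Slain1, Lbx2, Sall3, Foxd1) and 9 (led by mitosis genes such as Cenpf and Ube2c) came next for Nefl in the female library, at 97.8 and 99.2 CPM. Male barcodes had 96.1 CPM of Nefl in cluster 16 and 63.8 CPM in cluster 9. Cluster 14 (Tcf21, Aldh1a2) had 65.6 CPM of Nefl in the male library, against 32.4 CPM in the female library. Nefm stood at 111 CPM in male and 71.4 CPM in female barcodes of cluster 14. Cluster 22 (Ahr, Dlx2, Greb1) had 46.3 and 54.3 CPM of Nefl, and the male-only cluster 23 (Tagln, Acta2, Actg2) 136 CPM of Nefl and 139 CPM of Nefm.

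Clusters 1, 9 and 16 were those in which the homeobox gene Lbx2 was at least 2 times its mesenchymal level in both libraries, a grouping made after the values were seen. They held 2390 male barcodes (14.7%) and 2733 female barcodes (15.4%). Nefl stood at 104.9 CPM in these clusters and 16.98 CPM elsewhere in the male library, and at 133.02 and 11.1 CPM in the female library. They carried 56.8% of male and 73.9% of female Nefl UMIs, 57.9% and 76.0% of Nefm, and 51.5% and 54.5% of Slc1a3, but 2.44% and 3.24% of Tac1. Foxd1 itself was detected in 23.97% of the male and 28.6% of the female barcodes of these clusters. Nefl was detected in 26.4% and 31.6% of them, Nefm in 24.02% and 31.98% and Slc1a3 in 28.1% and 29.1%.

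Slc1a3 was also above its mesenchymal level of 18.1 CPM male and 19.1 CPM female outside the Lbx2 clusters. In cluster 7 (Tbx15, Sim1, Agtr2) it stood at 38.4 CPM male and 37.8 CPM female, beside 16.4 and 29.2 CPM of Nefl. Cluster 15 (Sox9, Scx) had 30.8 and 30.6 CPM of Slc1a3. Among the 23 clusters with at least 50 barcodes in each library it was lowest in clusters 8 and 11, with 1.11 male and 0.29 female CPM in cluster 8 and 0.91 and 3.69 CPM in cluster 11, each from at most 11 UMIs.

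Tac1 was highest in clusters 8 (Igfbp7, Dlx2, Runx1), 3 (the agouti gene a, Rprm, Dkk1) and 5 (histone genes, Msx2, Msx1). Its level was 261 CPM male and 255 CPM female in cluster 8, 259 and 170 CPM in cluster 3, and 258 and 199 CPM in cluster 5. Msx2 was at least 2 times its mesenchymal level in 5 clusters (0, 5, 8, 11 and 12). These held 27.6% of male and 25.3% of female barcodes and carried 57.2% and 47.9% of the Tac1 UMIs. Tac1 was not uniform among them, since cluster 11, led by Dlx6os1 and Prss35, had 46.0 CPM male and 37.3 CPM female although Msx2 there reached 413 and 381 CPM. Cluster 3 had 206 and 142 CPM of Msx2. Low Tac1 levels were found in clusters 14, at 7.33 CPM male and 11.3 CPM female, and 1, at 8.72 and 10.35 CPM.

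**Figure D2:**
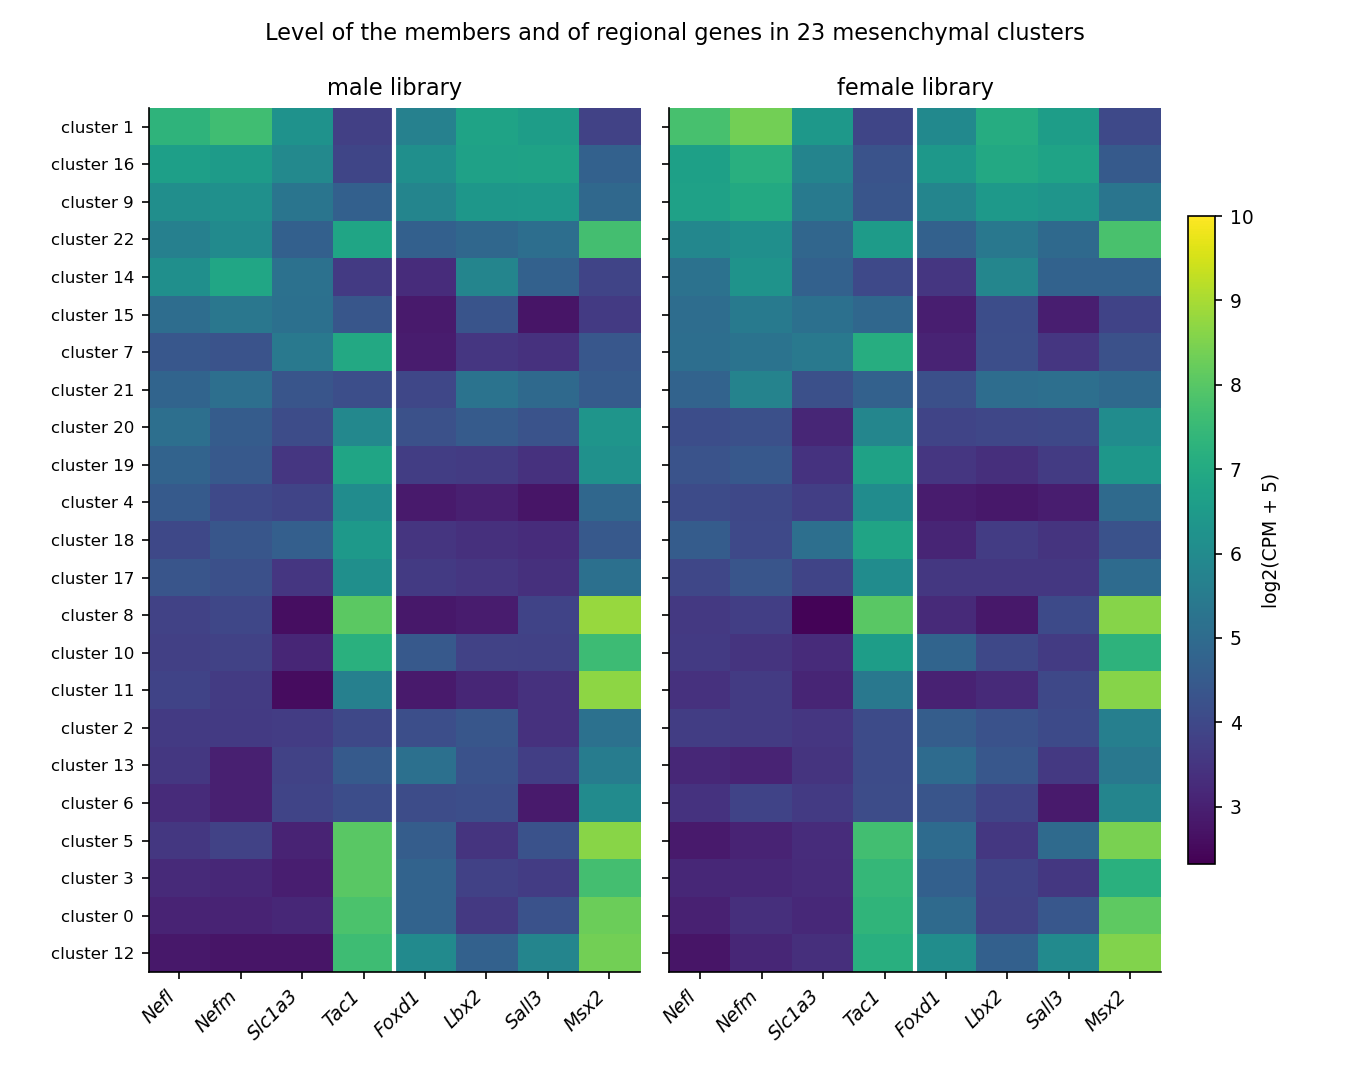
Level, as log2(CPM + 5), of the members and of Foxd1, Lbx2, Sall3 and Msx2 in the 23 mesenchymal clusters with at least 50 barcodes in each library, in the male (left) and female (right) library, with clusters sorted by their Nefl level. Cluster 1 holds the highest Nefl, Nefm and Slc1a3 levels in both libraries, and clusters 8, 3 and 5 the highest Tac1 levels of the male library.

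The genes whose level followed each member most closely across the 23 clusters were listed by the lower of the Pearson correlations in the 2 libraries, on log2(CPM + 5). These correlations describe clusters that share a library and its depth, so they carry no p-value. For Nefl the nearest gene was Nefm, with r = 0.97 in the male library and 0.98 in the female one, followed by the collagen gene Col8a1 (0.84 and 0.85), Slc1a3 (0.84 and 0.90), Kbtbd8 and Slc26a7. For Nefm, Nefl was followed by Ntrk3, the receptor of neurotrophin-3, at 0.92 and 0.87, then Kbtbd8, Clrn1 and Slc1a3. Slc1a3 was nearest to Egflam, an extracellular matrix gene, at 0.94 and 0.95, and then to Creb5, Meis2, Lysmd2 and Nexn. Tac1 was nearest to Etv4 (0.92 and 0.87), Dsc3, Spry4, Etv5 and Prdm1. Etv4, Etv5 and Spry4 are targets of FGF signalling. Nefl had r = 0.77 and 0.80 with Lbx2 but 0.20 and 0.25 with Foxd1, and Tac1 had 0.75 and 0.61 with Msx2. Foxd1 stood at 59.3 CPM male and 62.8 CPM female in cluster 12, an Msx2 cluster, above its 46.9 and 57.8 CPM in cluster 1. Cluster 12 nevertheless had only 2.06 and 1.82 CPM of Nefl, 1.71 and 3.95 of Nefm and 1.71 and 5.16 of Slc1a3. Its Tac1 level was 192 and 138 CPM.

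Within mesenchyme, positive barcodes were compared with negative ones as log2 of CPM + 5. Nefl-positive barcodes had 255.6 CPM of Nefm in the male library, against 10.4 CPM in Nefl-negative barcodes, a log2 ratio of 4.08, and 334 against 11.6 CPM in the female library, a ratio of 4.35. The proteoglycan gene Spock1 followed, at 1.83 male and 2.16 female, then Lbx2 (1.70 and 2.04), Slc1a3 and Creb5. Nefm-positive barcodes had Nefl, Lbx2, Spock1, Slc1a3 and Cthrc1 as their largest ratios, and Slc1a3-positive barcodes had Nefm, Lmcd1, Nefl, Lbx2 and Creb5. Tac1-positive barcodes were marked by Ntm, at 1.76 in both libraries, then Itga6, Vgll2, Cpxm2 and Mab21l2. The neuronal tubulin Tubb3 was lower in Nefl-positive barcodes, at 16.4 against 27.7 CPM in the male library and 21.5 against 36.02 CPM in the female library.

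Nefl and Nefm were often found in the same barcodes. Both were detected in 656 male barcodes, which is 47.0% of the Nefl-positive and 52.4% of the Nefm-positive ones. In the female library both were detected in 840 barcodes, 54.8% of the Nefl-positive and 53.7% of the Nefm-positive ones. In Nefl-negative barcodes Nefm was detected in 4.01% in the male library and 4.46% in the female one. The observed number was 6.09 times male and 6.22 times female the product of the separate shares, and 9.20 and 9.50 times with counts thinned to 2000 UMIs. Without strand, reads in the 1108 shared exon bases could not be told apart between the pair, and the part of that overlap in the co-detection was not tested.

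Slc1a3 had lower ratios with the pair. Nefl and Slc1a3 were both detected in 364 male and 460 female barcodes, 3.07 and 3.30 times the product of the shares. Nefm and Slc1a3 were both detected in 337 and 471 barcodes, 3.17 and 3.31 times the product. Slc1a3 lies on another chromosome than the neurofilament genes and shares no exon with them. All of Nefl, Nefm and Slc1a3 were detected in 226 male barcodes (1.39%) and 341 female barcodes (1.92%), and all 4 members in 17 and 42.

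Tac1 was found with each other member in fewer barcodes than the product of the shares gives. The ratio was 0.58 male and 0.66 female with Nefl, 0.54 and 0.59 with Nefm, and 0.50 and 0.74 with Slc1a3. With Msx2 it was 1.99 and 1.82. Thinned to equal depth, the Nefl and Nefm ratio was also above 1 inside each domain. It was 6.68 male and 5.01 female in Foxd1-only barcodes and 10.95 and 13.8 in Msx2-only barcodes (16 and 18 barcodes with both). In barcodes with neither gate gene it was 7.95 and 8.45. With Foxd1 the ratio as sequenced was 1.61 male and 1.69 female for Nefl, 1.66 and 1.69 for Nefm, and 2.19 and 2.14 for Slc1a3. After thinning, the ratios with Foxd1 were 1.07 and 1.49 for Nefl, 1.53 and 1.31 for Nefm, and 2.02 and 1.85 for Slc1a3. Tac1 with Msx2 had 2.19 and 1.91 after thinning.

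Detection of the other members was then followed over the number of Nefl UMIs in thinned barcodes. At 0, 1, 2 and 3 to 4 Nefl UMIs, Nefm was detected in 2.59%, 27.8%, 54.5% and 69.2% of male barcodes. The female shares at the same steps were 3.07%, 35.2%, 59.9% and 77.5%. Tac1 had the opposite order, with 13.6%, 5.89%, 4.46% and 1.54% in male and 11.9%, 5.69%, 3.52% and 0.98% in female barcodes. Only its drop from 0 to 1 Nefl UMI went beyond the intervals. The last pair of steps rested on 5 and 1 Tac1-positive barcodes in each library. Slc1a3 was detected in 2.88%, 9.96%, 18.8% and 15.4% of male and 2.81%, 10.4%, 18.3% and 20.6% of female barcodes, and its last pair of steps did not differ beyond their intervals in either library.

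**Figure D3:**
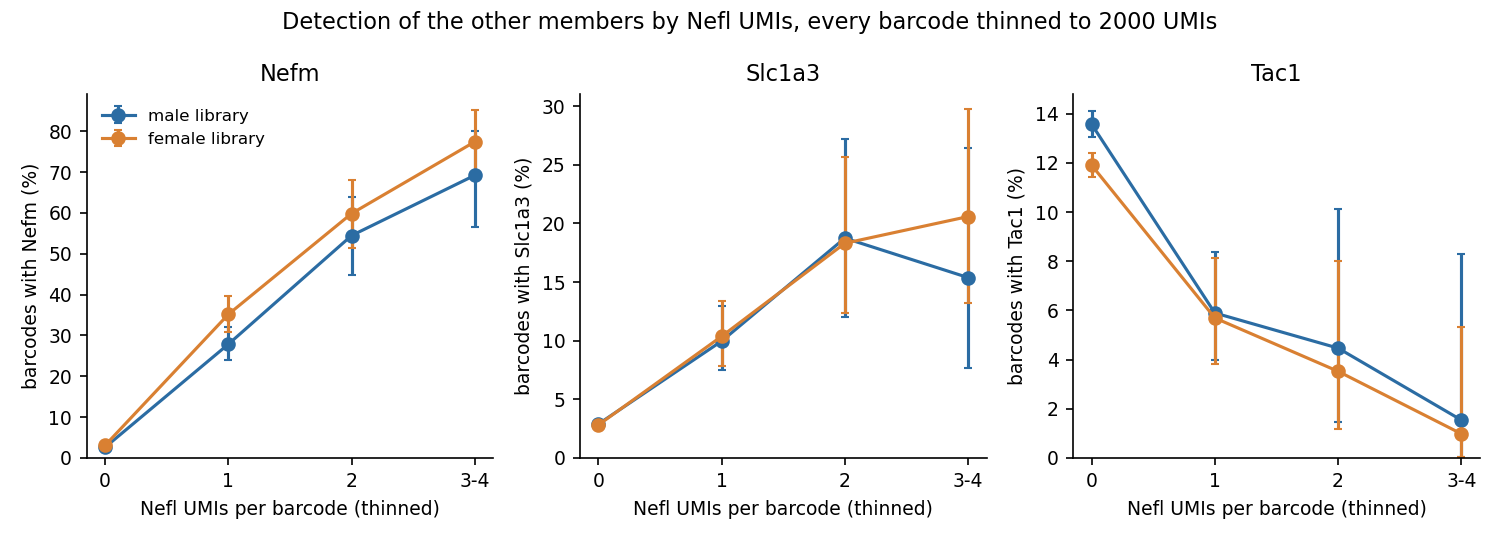
Share of mesenchymal barcodes (%) with Nefm, Slc1a3 or Tac1 by the number of Nefl UMIs, each barcode thinned to 2000 UMIs, with lines for the male and female library and exact 95% intervals. Nefm reaches 69.2% in the male library and 77.5% in the female one at 3 to 4 Nefl UMIs. Tac1 stands there at 1.54% and 0.98%, from 1 Tac1-positive barcode in each library.

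Nearly every barcode positive for a member carried several mesenchymal markers. At least 3 of the 8 mesenchyme markers were detected in 95.7% to 98.8% of the barcodes positive for a member. At least 3 of 8 neuron markers, among them Elavl3, Snap25, Syt1, Stmn2 and Tubb3, were detected in 9 male and 8 female mesenchymal barcodes, of which 2 and 1 were Nefl-positive. Summed over the 8 neuron markers, Nefl-positive barcodes had 31.3 CPM male and 34.8 CPM female, against 37.4 and 44.7 CPM in all mesenchymal barcodes. That order came from Tubb3, which gave 26.5 male and 34.4 female CPM of the mesenchymal sums. The other 7 markers together were higher in Nefl-positive barcodes, at 14.9 CPM male (12.7 to 17.4) and 13.3 CPM female (11.3 to 15.4), against 10.96 and 10.3 CPM in all mesenchymal barcodes. The part of neuronal RNA in the Nefl values was not tested. None of the 8 was at 0 in the male Nefl-positive barcodes, and 1 was at 0 in the female ones. Smooth muscle markers (Acta2, Actg2, Myh11, Cnn1, Tagln) summed to 255.7 CPM in male and 75.7 CPM in female Nefm-positive barcodes, with none of the 5 at 0. All mesenchymal barcodes had 130.4 and 56.5 CPM of them. Nefl-positive barcodes had 171.3 CPM male but 29.0 CPM female, and Slc1a3-positive ones 221.4 but 48.0 CPM. Tac1-positive barcodes had 88.7 and 45.5 CPM, so only the Nefm-positive sum was higher in both libraries. Skeletal muscle markers summed to 131.7 CPM in female Nefm-positive barcodes, against 56.5 CPM in all female mesenchymal barcodes. With clusters 20 and 23 to 27 left out, the domain ratios, the shares and the co-detection of the members stayed within their counting intervals.

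Other cell types in the same droplet runs gave a background for these levels. Endothelial barcodes numbered 190 male and 127 female, with median depths of 13229 and 11707 UMIs. Nefl stood at 32.4 CPM in male mesenchyme and 2.93 CPM in male endothelium, and at 34.5 and 6.14 CPM in the female library. In shares, Nefl UMIs were in 3.16% of male and 4.72% of female endothelial barcodes. Endothelial levels of Nefl, Nefm, Slc1a3 and Tac1 were 9.04%, 7.29%, 11.4% and 8.08% of the mesenchymal level in the male library, where the 8 mesenchyme markers had a median of 7.75%. The female values were 17.8%, 16.2%, 32.2% and 9.82%, beside a marker median of 24.3%. Slc1a3 in female Msx2-only barcodes, at 6.97 CPM, was within the counting interval of its female endothelial level of 6.14 CPM (3.27 to 10.5). The female domain ratio of Slc1a3 is thus taken over a level that was not set apart from that of endothelium. Single mesenchymal clusters lay lower, with 0.29 CPM in female cluster 8 from 1 UMI. In the male library Slc1a3 stood at 6.07 CPM in Msx2-only barcodes, against 2.05 CPM (0.83 to 4.23) in endothelium. Tac1 in Foxd1-only barcodes, at 15.4 CPM male and 15.2 CPM female, was above its endothelial levels of 7.92 CPM (5.22 to 11.5) and 8.03 CPM (4.68 to 12.9). Endothelial barcodes were deeper than Foxd1-only and Msx2-only ones, and these levels were not compared at equal depth. Whether Tac1 in Foxd1-only barcodes or Slc1a3 in Msx2-only barcodes lay above background was therefore not tested in either library. Epithelial levels of Tac1 were 10.7 and 12.9 CPM.

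Outside mesenchyme, glia and epithelium had levels at or above those of mesenchyme for some members. Epithelial barcodes, 171 male and 95 female, had 24.8 and 20.2 CPM of Slc1a3, which is 137% and 106% of its mesenchymal level, with Nefl at 2.29 and 1.62 CPM. Glial barcodes, 45 male and 61 female, had 58.9 and 99.4 CPM of Nefl, or 182% and 288% of the mesenchymal level, and 55.6 and 75.1 CPM of Nefm. Their mesenchyme markers had medians of 35.5% and 31.9% of the mesenchymal level. Slc1a3, known from central glia, was at 11.8 and 9.24 CPM in these Sox10-positive barcodes, from 7 and 8 UMIs. In the 58 male immune barcodes Nefl had 29.1 CPM from 22 UMIs in 6 barcodes, whereas 0 of the 39 female ones had a Nefl UMI, which allows a share of up to 7.69%. Barcodes with at most 100 UMIs, taken as free RNA, had 34.9 and 33.3 CPM of Nefl and 73.9 and 75.4 CPM of Tac1.

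**Figure D4:**
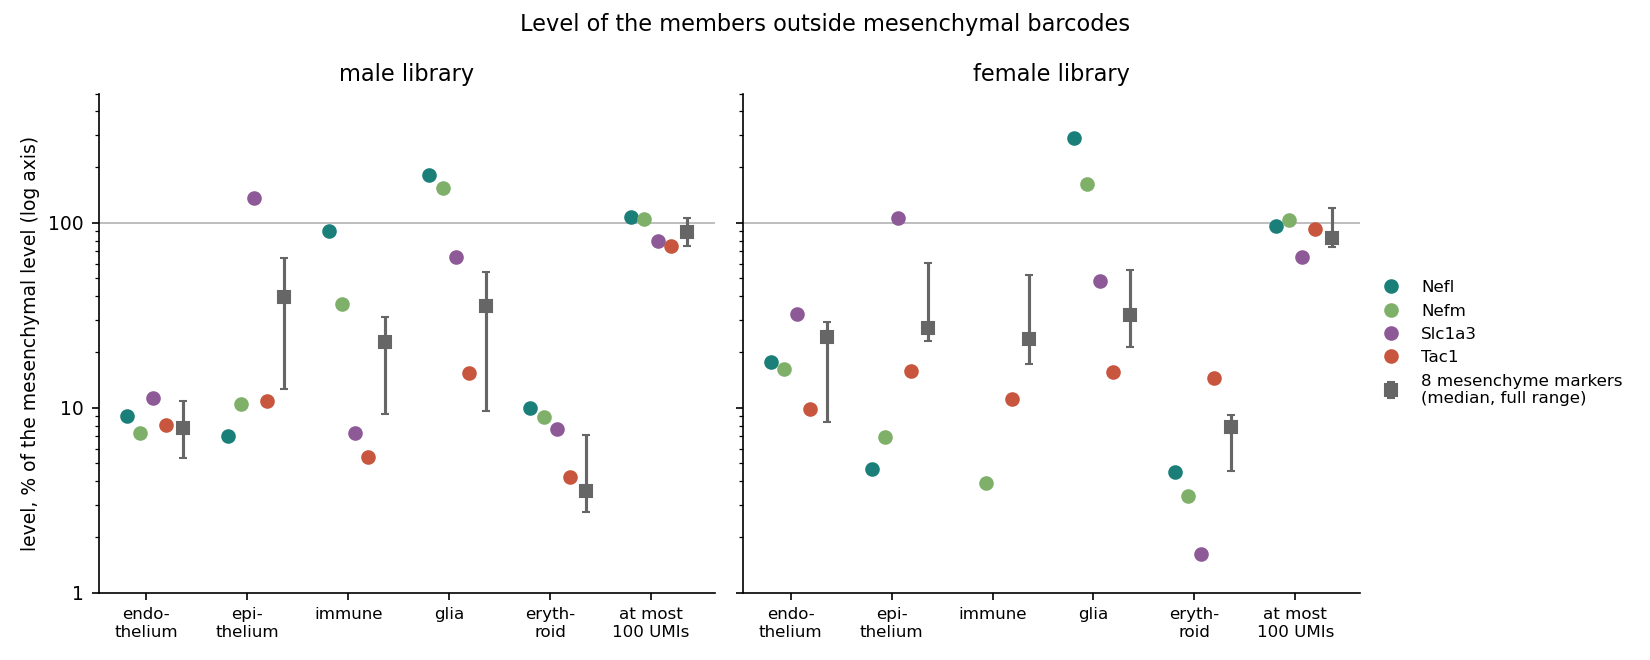
Level of each member in other cell types and in barcodes with at most 100 UMIs, as a percent of its mesenchymal level (log axis), male library left and female library right. Squares and bars give the median and full range of the 8 mesenchyme markers. Female immune barcodes had 0 UMIs of Nefl and Slc1a3, which a log axis cannot show. Among the cell types, Nefl and Nefm in glia and Slc1a3 in epithelium stand above 100% in both libraries.

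Further genes of the same systems were read from fixed lists, as counts of genes past a log2 ratio of 1 in both libraries. Among 12376 genes, 1.46% passed towards Foxd1 and 2.73% towards Msx2. Of 12 genes of the neuronal cytoskeleton, 7 had at least 100 UMIs in each library, 0 passed towards Foxd1 and 1 towards Msx2. That gene was Map2, a dendritic microtubule protein, at -1.50 male and -1.37 female. The list's median log2 ratio was 0.44 male and 0.03 female. Nefh, the heavy neurofilament chain, had 6 male and 12 female UMIs, and Prph, the intermediate filament of peripheral neurons, 41 and 27. Map1b, a microtubule protein of growing axons, stood at 157 and 195 CPM, Gap43, a growth cone protein, at 29.9 and 29.1 CPM, and Tubb3 at 26.5 and 34.4 CPM.

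Of 16 pan-neuronal genes, 6 had enough UMIs, and 1 passed, towards Msx2. This was Syt1, a calcium sensor of synaptic vesicles, at -2.08 male and -1.97 female, and the list medians were -0.40 and 0.12. Uchl1, a ubiquitin hydrolase abundant in neurons, had 48.5 CPM male and 65.5 CPM female. Among 10 genes of glutamate transport and handling, 7 had enough UMIs and 1 passed. Slc1a2, the other main astrocyte glutamate transporter, was lower in Foxd1-only than in Msx2-only barcodes. It had 0.54 against 5.10 CPM in the male library and 0.67 against 4.24 CPM in the female one. This is the opposite order to Slc1a3, but the Foxd1-only levels of Slc1a2 rest on few UMIs, the male one near the floor of 3 counts. Glul, glutamine synthetase, stood at 59.7 and 67.5 CPM in mesenchyme.

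The tachykinin list held 11 genes, of which 4 had enough UMIs. Mme, the neprilysin peptidase that degrades substance P, was the 1 gene that passed, towards Foxd1, with 115.8 CPM in Foxd1-only and 47.0 CPM in Msx2-only male barcodes and 107.4 and 49.4 CPM in female ones. This order of domains was opposite to that of Tac1. The list medians were 0.07 in both libraries. Tacr1, the substance P receptor, had 17 male and 18 female UMIs, and Tacr2 and Tac4 had 0 in both libraries. Cpe and Pam, which trim and amidate peptide hormones, stood at 78.6 and 85.3 CPM and at 25.8 and 26.9 CPM. The prohormone convertases Pcsk1 and Pcsk2 had 2 and 25 male and 2 and 12 female UMIs. Among 21 regional mesenchyme genes, Foxd1, Sall3, Lbx2 and Ogn passed towards Foxd1 and Msx1, Msx2, Dlx2, Dlx5 and Runx1 towards Msx2, with Foxd1 and Msx2 set by the gate. The list medians were 0.48 male and -0.07 female.

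Between the sexes the members differed by less than a log2 ratio of 0.5 over all mesenchymal barcodes. Among 13511 genes, 3.03% had a male over female log2 ratio of at least 0.5 and 1.04% one of at most -0.5, and none of the 4 members was past either. Nefl was 32.4 CPM male and 34.5 CPM female, a log2 ratio of -0.09 (-0.16 to -0.02). Nefm had 36.2 and 46.6 CPM, a ratio of -0.37 (-0.43 to -0.30), and Slc1a3 18.1 and 19.1 CPM, a ratio of -0.08 (-0.17 to 0.01). Tac1 was higher in the male library, at 98.1 against 81.8 CPM, with a ratio of 0.26 (0.22 to 0.30). The Nefl and Nefm signs depended on which barcodes were kept. With at most 5% mitochondrial UMIs, which left 1107 male and 1023 female barcodes, the ratios were 0.95 for Nefl and 0.99 for Nefm. Weighting the clusters alike in both libraries gave -0.21 and -0.51. In the set with few mitochondrial UMIs, 45 male barcodes of the smooth muscle cluster 23 held 23.5% of the male Nefl and 29.8% of the Nefm UMIs.

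Cluster 23 held 8.44% of male Nefl and 7.73% of male Nefm UMIs over all mesenchymal barcodes. Without it the male over female ratios were -0.19 for Nefl and -0.45 for Nefm. Its share in the sex values was not tested further, and the 1 library in which it occurred cannot be told apart from the male sex.

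The sexes also had different ratios in different regions. In the Lbx2 clusters Nefl had 104.9 CPM male and 133.02 CPM female (log2 ratio -0.34), and Nefm 119 and 184.5 CPM (-0.63). In the Msx2 clusters Nefl had 5.95 CPM male and 3.54 CPM female, a ratio of 0.75. The female level was below the 6.14 CPM of female endothelium, and whether it lay above background was not tested. No difference between the sexes is read from that ratio. In the remaining clusters the ratios were 0.63 for Nefl and 0.47 for Nefm, or 0.33 and 0.19 without cluster 23. Cluster 14 also weighed on them, with 215 male and 69 female UMIs of Nefl and 363 and 152 of Nefm. Its Lbx2 level was 1.997 times the mesenchymal level in the male library and 1.79 times in the female one, so it was just outside the Lbx2 clusters. Without clusters 14 and 23 the remaining clusters gave 0.11 (-0.03 to 0.25) for Nefl and -0.17 (-0.31 to -0.03) for Nefm. The higher male level of both genes outside the Lbx2 and Msx2 clusters thus rested on these clusters. Nefm was lower in the male library in each of clusters 1, 9 and 16, for example 197 against 324 CPM in cluster 1. Tac1 had 207 CPM in male and 156 CPM in female Msx2-only barcodes, a ratio of 0.40, and a ratio of -0.13 in barcodes with neither gate gene. In cluster 3 it had 259 and 170 CPM, and in cluster 8 its levels of 261 and 255 CPM were within counting error. Slc1a3 in the Lbx2 clusters had 53.0 and 54.2 CPM, a ratio of -0.03 (-0.16 to 0.09).

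**Figure D5:**
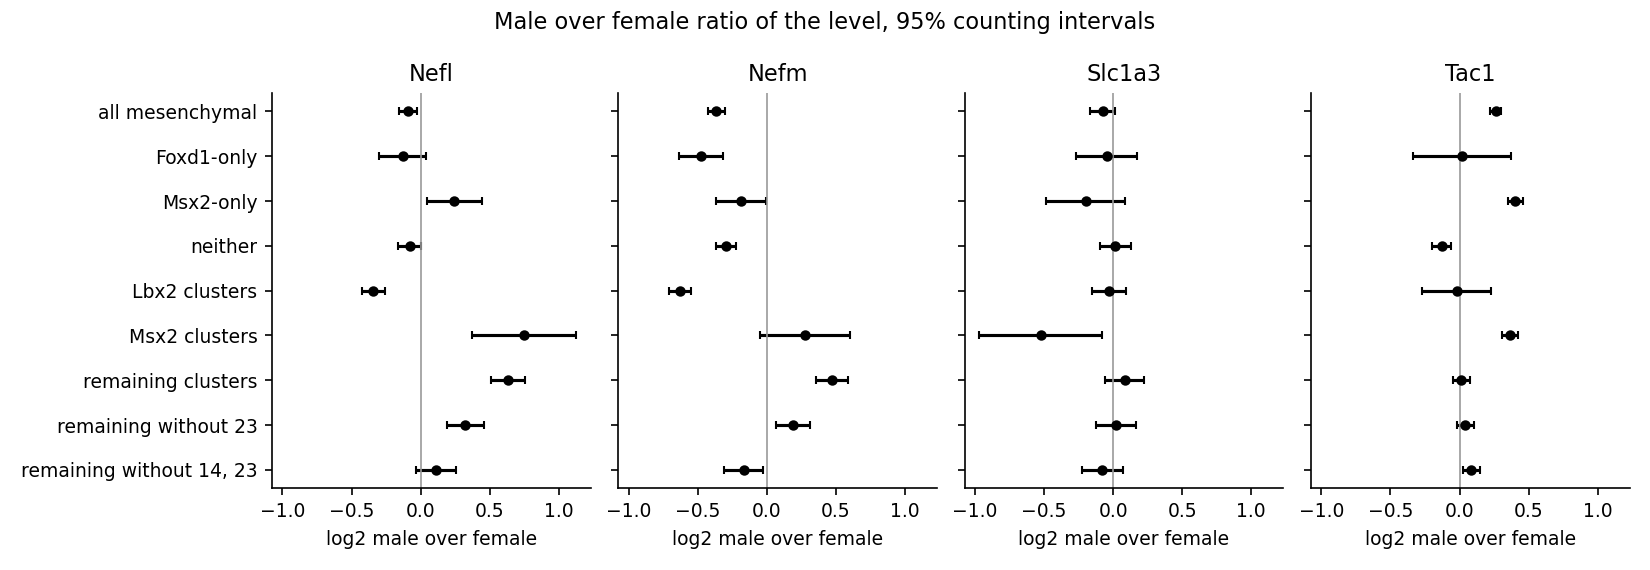
Male over female log2 ratio of each member's level over all mesenchymal barcodes, by domain and by cluster group, with 95% counting intervals that leave out differences between animals. Nefl and Nefm lie below 0 in the Lbx2 clusters, at -0.34 and -0.63, and above 0 in the remaining clusters. Without clusters 14 and 23 Nefm lies at -0.17 there and the interval of Nefl covers 0. Tac1 lies at 0.40 in Msx2-only barcodes.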

How the data were processed

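Genital tubercles of male and female mouse embryos were profiled by droplet single-cell RNA-seq, with 1 pooled library per sex. The authors deposited raw UMI counts per gene and barcode, made with Cell Ranger 3.1 and the mm10 genome per the submitters' processing notes. For strand use and the annotation version, nothing is given in the sources used here. Members and gene lists were chosen with earlier results of these data known.

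Barcodes had at least 2000 UMIs, 500 genes and at most 10% mitochondrial UMIs. Doublets were not removed. An alternative left out the 10% of mesenchymal barcodes with the most UMIs. Levels were summed UMIs divided by the UMIs of the set, times 1000000 (CPM). Ratios of 2 levels have exact conditional 95% intervals for Poisson counts, and shares have Clopper-Pearson intervals. UMIs of 1 cell pool share their animals, so the intervals cover counting error only and no test between sexes was possible. A floor of 3 counts set the limit for a count of 0. Mesenchymal barcodes (34005) were clustered with scanpy 1.11.5 on 1987 variable genes, 30 components, 15 neighbours and Leiden resolution 1, without the members, the gate genes and sex-linked genes. Other cell types needed 1 UMI of the gate gene and 3 UMIs summed over the type's other markers. Ratios over genes used those with at least 100 mesenchymal UMIs.

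Beside the 4 members, genes were named by rule. These were the 5 highest by likeness across clusters, the 5 highest by positive over negative ratio (pseudocount 5 CPM), and up to 4 of each list by level. Nefh, Prph, Slc1a2, Map2, Syt1, Tac4, the tachykinin receptors and the prohormone convertases were named after their values were seen. The median of the glutamate list is not reported here. The domain ratios and the sex ratios over all mesenchymal barcodes were checked on simulated Poisson counts. Those counts had no spread beyond counting error, whereas the variance of female Nefm was 9.58 times its mean over barcodes. The check therefore cannot show whether the intervals are wide enough for these data. Alternatives were 1000 and 5000 UMIs, 5% mitochondrial UMIs, stricter mesenchyme gates, a gate of 2 UMIs, thinning, and clusters weighted alike. Python 3.11.15, numpy 2.4.6, scipy 1.17.1 and pandas 2.3.3 were used.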

Additional observations from a re-analysis of the deposited data

Results flagged for a closer look

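The male over female log2 ratio of Nefl had opposite signs in different cluster groups, at -0.34 in the Lbx2 clusters, 0.75 in the Msx2 clusters and 0.63 in the remaining clusters. For Nefm the ratio was -0.63 in the Lbx2 clusters and 0.47 in the remaining clusters. For Tac1 it was 0.40 in Msx2-only barcodes and 0.32 in barcodes with both gate genes, but -0.13 in barcodes with neither. Each of these values had a counting interval on 1 side of 0, and the differences between them were not tested, since each sex was 1 pool. Without the male-only cluster 23 the remaining clusters gave 0.33 for Nefl and 0.19 for Nefm, and without all 6 clusters of other cell types 0.24 and 0.15. Without clusters 14 and 23 they gave 0.11 for Nefl and -0.17 for Nefm, so the opposite sign of Nefm was lost. The Msx2 cluster levels of Nefl, 5.95 CPM male and 3.54 CPM female, rest on 156 and 98 UMIs. The female level was below its endothelial level of 6.14 CPM, and whether it lay above background was not tested. No difference between the sexes is therefore read from that ratio.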

How the results depend on the processing

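The Foxd1-only over Msx2-only log2 ratios kept their sign under every alternative run, and 63 of 88 stayed within their counting interval. Values that moved are listed as male, then female where both moved. Thinned to 2000 UMIs, the ratios were 2.60 and 2.82 for Nefl, 3.21 and 2.86 for Nefm, 3.55 and 2.77 for Slc1a3, and -3.48 and -3.02 for Tac1. With at least 5000 UMIs they were 1.87 (Nefl, male), 1.78 and 2.28 (Nefm), and 2.34 (Slc1a3, male). With at most 5% mitochondrial UMIs they were 3.45 and 2.02 (Nefl), and in the male library 2.79 (Nefm), 2.96 (Slc1a3) and -4.41 (Tac1). Without the 10% of barcodes with the most UMIs, male ratios were 2.41 (Nefl), 3.0996 (Slc1a3) and -4.13 (Tac1). A gate of at least 2 UMIs gave female ratios of 3.03 (Nefl), 2.85 (Nefm) and 2.79 (Slc1a3), and -4.38 and -4.09 for Tac1.

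Of 44 male over female values, 31 stayed within their interval. At most 5% mitochondrial UMIs reversed Nefl, to 0.95, and Nefm, to 0.99, and moved Slc1a3 to 0.85 and Tac1 to 0.42, on 6.82% of the male and 5.75% of the female barcodes. Without the barcodes with the most UMIs Nefl was -0.0033 and Nefm -0.26. Clusters weighted alike gave -0.21 and -0.51. Tac1 was 0.20 with at least 5000 UMIs. Chosen after seeing the data, leaving out cluster 23 gave -0.19 and -0.45, leaving out clusters 20 and 23 to 27 gave -0.23 and -0.48, and leaving out shared barcodes moved none of them. In the clusters outside the Lbx2 and Msx2 groups, leaving out clusters 14 and 23 reversed Nefm, to -0.17. Leaving out cluster 14 and the clusters of other cell types reversed Nefl, to -0.0031, and Nefm, to -0.24. Cluster 14 alone gave 0.504 and 0.26 when left out. The cause of these moves was not tested beyond the share of cluster 23 given above.

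At least 1 member was detected in 46.8% male and 46.2% female barcodes with at least 5000 UMIs, 36.04% and 30.9% with at most 5% mitochondrial UMIs, 36.9% and 35.2% without the deepest barcodes, 21.9% and 20.6% after thinning, and 19.8% and 18.7% at 2 or more UMIs. Nefm in Nefl-positive barcodes was 38.4% and 46.8% after thinning, 55.7% and 66.1% at 2 or more UMIs, and 51.6% in the female library without the deepest barcodes. At least 1000 UMIs and the stricter gates moved none of these. Depth limits the shares, and 1 pool per sex limits the sex values. No paired analysis was possible because each sex had 1 library and no result comes from a test.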
